A study of Mus musculus with 16 samples.

Results

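The type I interferon response genes described here are a list of 34 mouse genes that cells switch on after type I interferon binds its receptor. The members were chosen by name, with no measured value in the rule, though with earlier results of these data known. Of the 34, 32 had values among the 19715 genes of the deposited matrix. Each of the 32 had at least 1 unique molecular identifier (UMI, a tag that marks 1 captured RNA molecule) in every library. Mx1 and Mx2 are not analysed here. The data are single-cell RNA sequencing (10x Genomics 3' version 3 chemistry) of NB9464D mouse neuroblastoma grafts grown under the skin of male C57BL/6 mice, aged 8 weeks, and taken on day 28. The hosts were wild type (WT) or lacked CD200R (labelled CD200R-/- in the sample characteristics and CD200-/- in the growth protocol; KO here), and the same grafted line was used in all groups. CD200R is an inhibitory receptor of myeloid cells for the membrane protein CD200. Grafts were digested with collagenase at 1 mg/mL, and either CD45+ cells were sorted (the sorted preparation) or all tumor cells were loaded (the tumor preparation).

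The labels list 4 samples in each of the 4 groups, but a cell can be traced to its group and not to a sample, so each group is 1 library and no difference between WT and KO can be set against a spread between mice. No p-value or SD is therefore given. Intervals are 95% intervals of the UMI counting error only. The sorted libraries held 5219 WT and 4305 KO cells, with median depths of 4665 and 3127 UMIs per cell, and the tumor libraries 4955 and 5897 cells, with 19850 and 16276. Any pair of libraries shared 42 to 72 cell barcodes. Cd200r1, the targeted gene, was at 70.5 CPM (UMIs of a gene in 1000000 UMIs of the cells summed) in sorted and 29.3 in tumor WT macrophages and had 0 UMIs in KO macrophages of both preparations. Cell type names are the authors' own. The cells they named neuroblastoma (NB) were led by mitotic genes (Cenpf, Aspm, Plk1). Those named fibroblasts were led by matrix genes in the tumor preparation (Ccdc80, Mgp, Postn). In the sorted preparation they were led by the immunoglobulin genes Ighg1 and Jchain, ahead of matrix genes. Those named hematopoietic stem cells were led by mast cell genes in the sorted preparation (Mcpt4, Cma1, Cpa3) and those named cancer stem cells by erythroid genes. These 4 names are therefore used only as the authors' labels.

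In background, type I interferons are secreted proteins that bind the receptor chains Ifnar1 and Ifnar2, which carry the kinases Tyk2 and Jak1. The kinases activate STAT proteins, among them Stat2, which with Irf9 takes part in a complex that binds the interferon-stimulated response element in the promoters of target genes. Many of the targets block viruses, by binding foreign RNA, degrading it or trapping particles at membranes, and others amplify or damp the signal itself. In tumors these genes are read as a sign that interferon has reached a cell, whichever cell made it.

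The core of that response element was searched for as GAAANN followed directly by GAAA, on both strands, in the RefSeq promoters (build GRCm38.p6) from 250 bases before to 50 after each gene's start. An entry was found for 24 of the 32 members, and 13 of the 24 held the motif, compared with 3.99% of all 27025 genes with an entry. Counted by promoter, since some genes have several, 14 of 29 member promoters held it, compared with 3.44% of all 32851 promoters of the same length. Before the start site alone, 10 members held it, and 2.98% of all promoters did. The gamma-activated site TTCNNNGAA, whose matches may overlap those of the first motif, was in 5 of the 24 members and in 9.55% of all genes with an entry (8.3% of promoters). Not shown are Irf7, Oasl1, Oasl2, Xaf1, Ifi44 and Herc6, which had no match of the response element in the window and were higher in KO graft cells of both names. The promoter stretches below were chosen among members that hold that motif and were higher in KO graft cells. Bst2 was added as a member that holds the motif and differed by under 1.5-fold there. Each is written 5' to 3' on the gene's strand, with the motif or its reverse complement in capitals, and lies before the gene's first annotated base. They lie at chr1:174031811-174031915 (minus strand, Ifi205), chr4:156200819-156200978 (minus, Isg15), chr8:71537473-71537632 (minus, Bst2), chr12:26456453-26456612 (minus, Rsad2), chr19:34583369-34583528 (plus, Ifit3) and chr19:34640729-34640870 (plus, Ifit1).
Ifi205: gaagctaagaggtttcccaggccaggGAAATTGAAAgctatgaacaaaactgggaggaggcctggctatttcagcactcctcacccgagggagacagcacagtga
Isg15: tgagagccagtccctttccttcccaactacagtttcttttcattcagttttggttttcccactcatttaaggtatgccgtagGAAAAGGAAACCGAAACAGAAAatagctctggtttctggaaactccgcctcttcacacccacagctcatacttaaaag
Bst2: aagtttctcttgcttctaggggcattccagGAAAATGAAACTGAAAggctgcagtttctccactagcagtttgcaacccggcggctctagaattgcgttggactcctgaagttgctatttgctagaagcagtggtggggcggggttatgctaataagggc
Rsad2: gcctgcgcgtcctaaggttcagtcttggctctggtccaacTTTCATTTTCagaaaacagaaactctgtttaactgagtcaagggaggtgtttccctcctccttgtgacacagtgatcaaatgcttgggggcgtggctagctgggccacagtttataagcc
Ifit3: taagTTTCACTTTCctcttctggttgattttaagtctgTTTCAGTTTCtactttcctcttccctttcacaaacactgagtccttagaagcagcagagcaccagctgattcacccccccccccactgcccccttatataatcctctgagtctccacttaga
Ifit1: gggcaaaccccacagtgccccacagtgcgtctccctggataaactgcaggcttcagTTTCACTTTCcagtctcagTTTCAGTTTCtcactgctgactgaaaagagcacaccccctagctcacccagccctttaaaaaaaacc
In Isg15 and Bst2 several copies of the motif overlap in a row, and Ifit1 and Ifit3 each hold 2 separate copies on the other strand. The Ifi205 promoter holds a further match 23 bases after the start site, outside the stretch shown. Ifit1 (chr19:34640871-34650009) and Ifit3 (chr19:34583531-34588731) both lie on the plus strand of chromosome 19, and Rsad2 (chr12:26442746-26456452) lies beside Cmpk2 (chr12:26469204-26479837) on chromosome 12. A motif match is a description of the letters in this window, not a binding site.

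Over whole libraries, the members together took 2374 CPM in WT and 1912 in KO sorted cells, and 856 in WT and 1076 in KO tumor cells. Because each UMI marks a 3' end, levels were not divided by gene length. A few membrane proteins and small interferon-induced proteins made up most of the sum. Ifitm3, which blocks viral entry at endosomal membranes, stood at 649, 331, 377 and 435 CPM in the same order of libraries. Bst2 (tetherin), which holds budding viruses on the cell surface, stood at 237, 156, 108 and 113 CPM. Ifi27l2a was at 508, 407, 30.1 and 66.0 CPM, so it was far higher in the sorted libraries. Ifitm1 was among the 5 highest members in WT sorted (189 CPM) and in both tumor libraries (193 in WT and 168 in KO), and Ifi27 in WT sorted (140 CPM) and both tumor libraries (56.5 and 65.0). In KO sorted cells Trim30a (134 CPM) and Ifi205 (75.1 CPM) took those 2 places. The lowest members were Ifi44 in WT sorted (1.49 CPM), Oas1a in KO sorted (7.23) and KO tumor (0.327) and Oas2 in WT tumor (0.0775, from 8 UMIs).

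Among cell types with at least 50 cells, neutrophils had the highest summed level of the members in both sorted libraries and the cells named M2 macrophages the next highest. Summed over the 32 members, neutrophils of the sorted preparation stood at 8045 CPM in WT (432 cells) and 7972 in KO (87 cells), and M2 macrophages at 5699 and 4319 in sorted and 1578 and 3465 in tumor cells. M1 macrophages were lower in sorted cells, at 1947 and 1411, and stood at 1514 and 1919 in tumor cells. Regulatory T cells (Tregs) were at 2692 and 3122 in sorted cells and 5271 in the KO tumor library (116 cells); Areg and Il13 were among their leading genes, and markers of group 2 innate lymphoid cells summed to 811 and 2523 CPM in the sorted and 1846 in the KO tumor cells of that name. Plasmacytoid dendritic cells were also high, at 5978 and 4159, but rested on 17 and 34 cells. B cells (1248 and 1098), T cells (1373 and 1029) and natural killer (NK) cells (959 and 940) of the sorted libraries formed a lower group. Cells named fibroblasts stood at 964 and 1322 in the tumor libraries and those named NB at 714 and 799. The lowest sums were those of cells named hematopoietic stem cells in the tumor preparation, at 388 and 373.

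**Figure D1:**
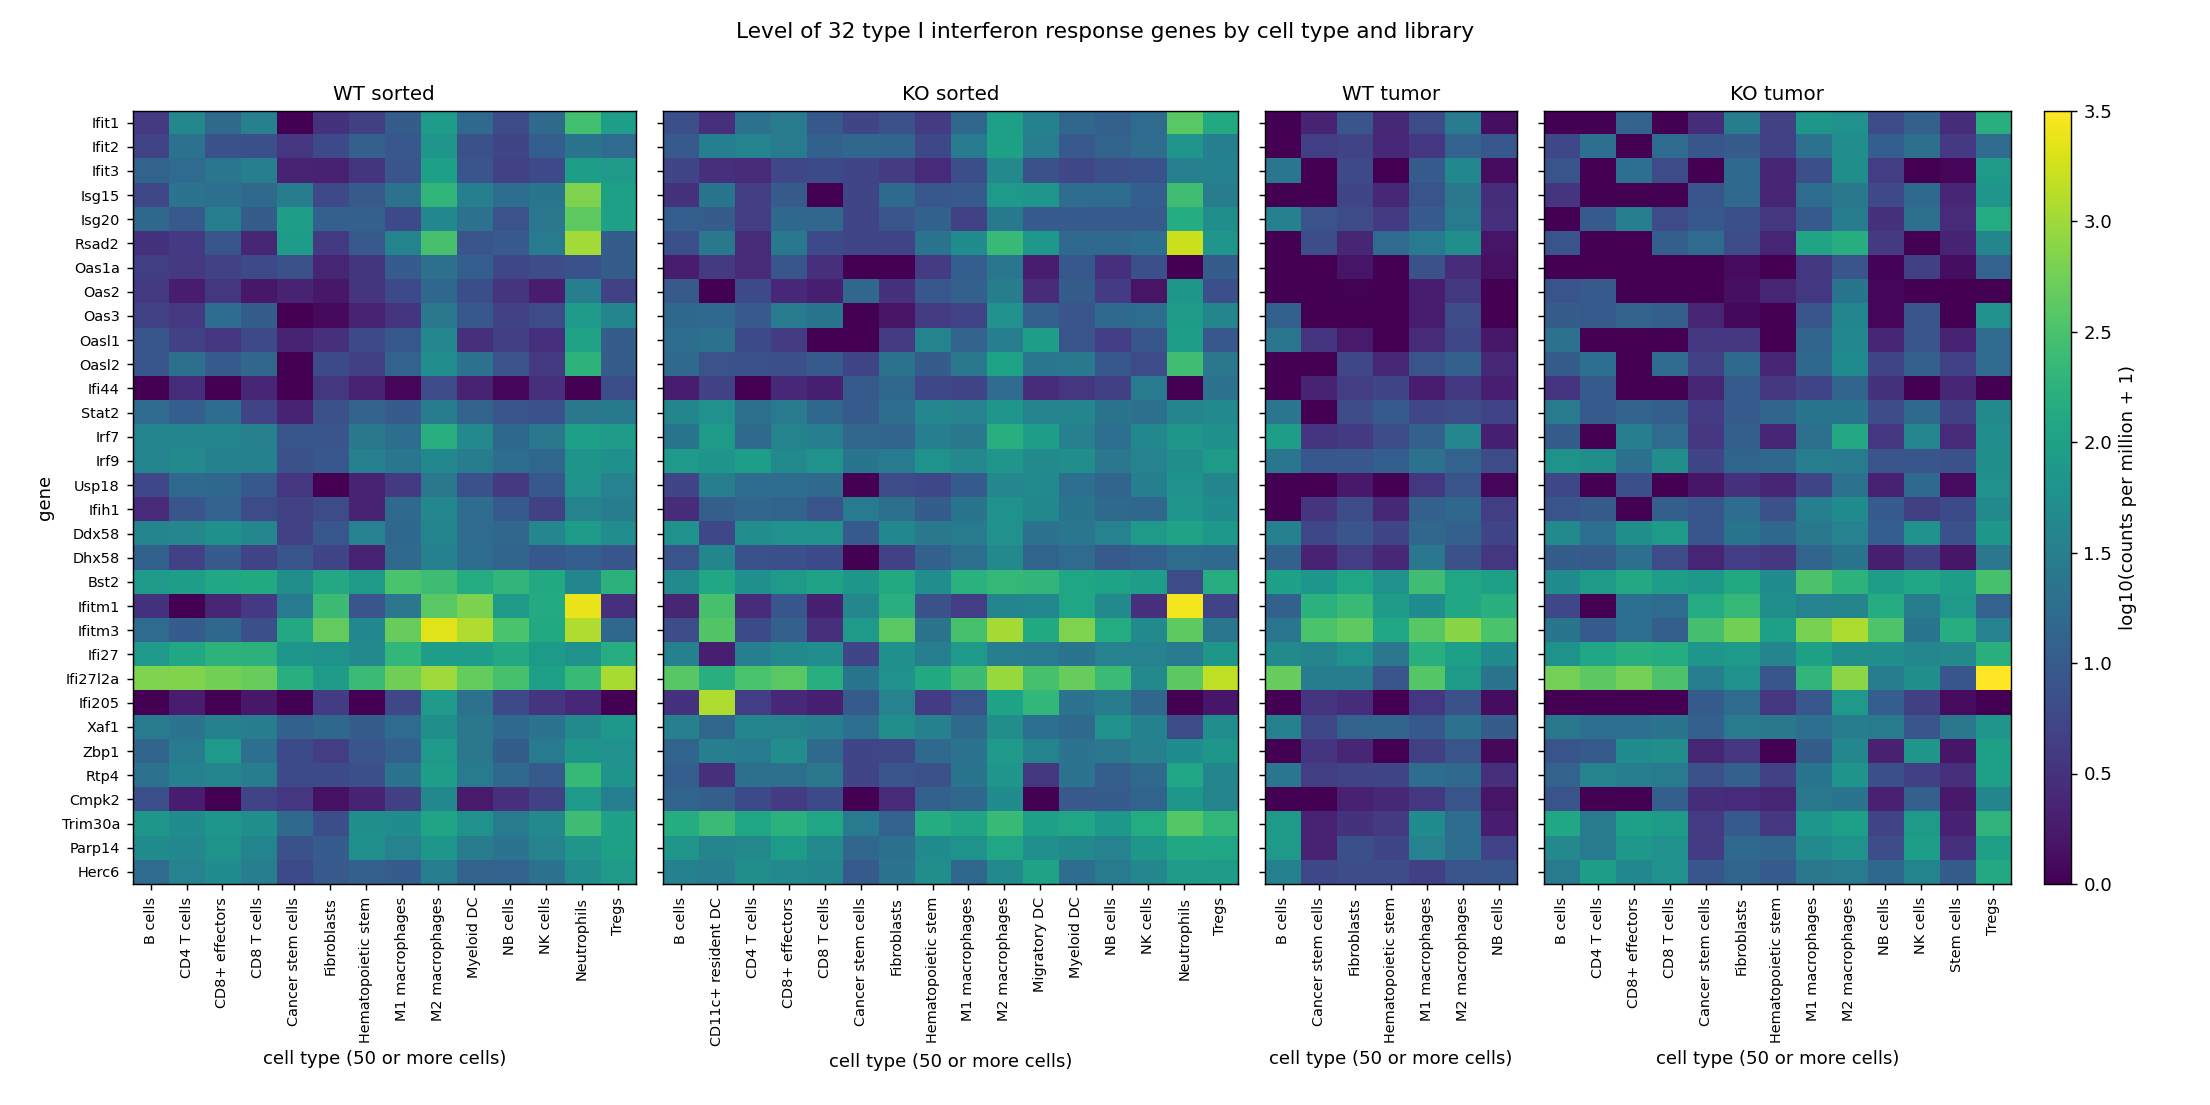
Level of each of the 32 measured members (rows) in the authors' cell types with at least 50 cells (columns) in the sorted libraries (WT, then KO) and the tumor libraries (WT, then KO); colour is log10(CPM + 1). Neutrophils and M2 macrophages have the highest levels in the sorted panels, with sums of 8045 and 5699 CPM in WT, and Ifitm3 and Bst2 are high across most columns.

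The members differed in which cell type was highest. Among types with at least 50 cells, neutrophils held the highest level of 15 of the 32 members in each sorted library. Rsad2 (viperin), an enzyme that makes a chain-terminating nucleotide, stood at 1032 CPM in WT and 1719 in KO neutrophils, beside 301 and 229 in M2 macrophages. Ifitm1 was at 2460 and 2730 CPM in neutrophils. Isg15, a ubiquitin-like protein that is joined to newly made proteins, was at 672 and 265 CPM in neutrophils, 203 and 77.3 in sorted M2 macrophages and 23.4 and 24.4 in tumor M2 macrophages. Isg20, an RNA exonuclease, was at 426 and 146 CPM in neutrophils. Ifit1, which binds RNA that lacks the host's cap modification, was at 276 and 405 CPM in neutrophils and at 89.4 and 131 in sorted Tregs. M2 macrophages were highest for 10 members in WT sorted and 9 in KO sorted cells. These included Irf7, the factor that drives interferon alpha genes, at 156 and 158 CPM in sorted and 40.5 and 130 in tumor M2 macrophages, and Ifitm3, at 2136 and 1079 in sorted and 766 and 1169 in tumor M2 macrophages. In the WT tumor library M2 macrophages and B cells (58 cells) were each highest for 13 members, and in the KO tumor library Tregs were highest for 18 and M2 macrophages for 10.

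A few members were highest in other, mostly small, cell types. Ifi205, a DNA-binding protein of the PYHIN family, was at 659 CPM in WT sorted, 1197 in KO sorted and 967 in KO tumor CD11c+ resident dendritic cells (30, 65 and 20 cells), beside 44.3 and 208 in sorted migratory dendritic cells. Bst2 was at 3651, 2276 and 3861 CPM in plasmacytoid dendritic cells of the WT sorted, KO sorted and KO tumor libraries (17, 34 and 9 cells), beside 321 and 173 in sorted and 266 and 333 in tumor M1 macrophages. Among types with at least 50 cells, Ifi27l2a was highest in Tregs, at 1096 and 1462 CPM in sorted and 3101 in KO tumor cells. Ifi27 was at 207 and 74.0 CPM in sorted and 156 and 98.1 in tumor M1 macrophages. Ifitm1 in the tumor libraries was highest in the cells named fibroblasts, at 229 and 215 CPM.

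Within macrophages, the members were higher in M2 than in M1 cells. Ratios here and below are log2 ratios of CPM relative to the median gene of the same comparison, over genes with at least 20 UMIs, and a member is called higher or lower past 1.5-fold (0.58 on the log2 scale). Where a library had 1 to 3 UMIs of a member, the UMIs and the 95% interval stand beside the ratio, and its rank among other ratios is not firm. In each sorted library 30 of 32 members were higher in M2 and 1 was lower, with medians of 2.27 in WT and 1.85 in KO. Over all genes, 20.3% were higher and 19.1% lower in WT sorted cells, and 16.6% and 19.2% in KO sorted cells. Ifit1 had ratios of 3.27 and 2.75. Ifi27 was the exception, at -1.05 and -1.26. In the tumor libraries the difference was smaller: 11 of 20 measured members were higher and 5 lower in WT (median 0.72; 29.2% and 30.4% of all genes), and 19 of 30 and 2 in KO (median 0.84; 18.8% and 19.9%). Ifi27l2a was lower in M2 than in M1 cells of the WT tumor library (-2.00). M2 macrophages of that library were 81 cells, in which fibroblast markers summed to 1396 CPM and macrophage markers to 3491.

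Pooled macrophages held more RNA of 12 members in KO than in WT in both preparations, among them the signaling factor Stat2, the RNA sensor Ddx58 and the oligoadenylate synthetases Oas2 and Oas3, and less of the membrane protein Ifitm1 and of Ifi27. In the sorted preparation (1577 WT and 761 KO cells) 13 of 32 members were higher and 7 lower, with a median of 0.34, beside 21.5% and 23.5% of all genes. In the tumor preparation 21 of 31 were higher and 2 lower, with a median of 1.01, beside 17.7% and 15.2%. Higher in both preparations were 12 of 31 members, beside 8.5% of all genes; 2 were lower in both, beside 7.13%, and 1 went opposite ways, beside 2.02%. Scaling by the total instead of the median gene raises every macrophage ratio by 0.33 in both preparations (0.21 in tumor NB-named and 0.30 in tumor fibroblast-named cells, and 0.19 to 0.57 in sorted classes), which gives 18 higher and 4 lower in sorted, 24 and 2 in tumor macrophages, and 18 of 31 higher in both, beside 20.4% of all genes. Scaling by the total raises all genes of a class alike, and its counts for single classes, here and below, stand without a share over all genes. With cells thinned to a common depth, 4 of the 22 members still measured were higher in both preparations, beside 10.1% of all genes. In sorted M2 macrophages alone the median was -0.10, and in sorted M1 macrophages alone 0.24. M2 cells held 8386788 of the 33437902 macrophage UMIs in WT and 3712364 of the 8778007 in KO sorted cells. This mix thus differed between WT and KO, and its part in the pooled ratios was not tested. Of the 12, only Stat2 and Oasl2 were higher in both preparations in M1 and in M2 cells alike.

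The 12 included a transcription factor and 2 of the 5 nucleic acid sensors. Stat2, a part of the interferon-activated complex, was at 13.9 CPM in WT and 48.2 in KO sorted macrophages and at 4.96 and 22.3 in tumor macrophages, log2 ratios of 1.46 (1.26 to 1.65) and 1.83 (0.86 to 2.93), with the intervals in parentheses. Irf9, its DNA-binding part, was at 27.4 and 52.4 CPM in sorted and 15.3 and 28.6 in tumor macrophages (log2 ratios 0.60 and 0.57), past 1.5-fold in the sorted cells alone. Ddx58, which encodes the RNA sensor RIG-I, was at 19.9 and 39.0 CPM in sorted and 12.2 and 29.1 in tumor macrophages (log2 ratios 0.64 and 0.92). Ifi205 was at 22.2 and 49.4 CPM in sorted and 4.51 and 39.7 in tumor macrophages (log2 ratios 0.82 and 2.81). The WT tumor values rest on few UMIs, since that library held 191 macrophages. Of the oligoadenylate synthetases, which make the messenger that activates RNase L, Oas3 was at 7.54 and 26.9 CPM in sorted and 3.15 and 21.8 in tumor macrophages (log2 ratios 1.502 and 2.46) and Oas2 at 7.33 and 18.3 CPM in sorted and 1.80 and 11.6 in tumor macrophages (log2 ratios 0.99 and 2.36). Oasl2, a relative of that family, was at 21.4 and 59.4 CPM in sorted and 9.01 and 30.5 in tumor macrophages (log2 ratios 1.14 and 1.43). Oas1a had 9 and 10 UMIs in tumor macrophages and was not measured there.

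The remaining members of the 12 are enzymes, RNA-binding proteins and regulators. Ifit2 was at 22.7 and 57.1 CPM in sorted and 7.21 and 33.9 in tumor macrophages (log2 ratios 1.00 and 1.90). Cmpk2, a mitochondrial nucleotide kinase, was at 13.1 and 29.1 CPM in sorted and 4.96 and 22.8 in tumor macrophages (log2 ratios 0.82 and 1.87). Trim30a, a ring-finger protein of the TRIM family, was at 64.3 and 158 CPM in sorted and 32.4 and 79.9 in tumor macrophages (log2 ratios 0.96 and 0.97), the highest level of the 12. Parp14, an ADP-ribosyltransferase, was at 42.4 and 83.7 CPM in sorted and 26.1 and 52.3 in tumor macrophages (log2 ratios 0.65 and 0.67). Ifi44 was at 1.52 and 9.23 CPM in sorted and 1.80 and 8.24 in tumor macrophages (log2 ratios 2.26 and 1.86). Usp18, the protease that removes Isg15 and damps receptor signaling, was at 8.07 and 22.9 CPM in sorted and 4.96 and 11.6 in tumor macrophages (log2 ratios 1.17 and 0.90), and its tumor interval spans 0 (-0.19 to 2.07). With equal weight per cell the tumor ratio of Usp18 was -0.17, and in sorted M2 macrophages alone that of Cmpk2 was -0.12.

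The members lower in both preparations were Ifitm1 and Ifi27. Ifitm1 was at 118 and 17.4 CPM in sorted and 84.3 and 36.3 in tumor macrophages (log2 ratios -3.09 and -1.55). Ifi27 was at 178 and 55.7 CPM in sorted and 125 and 78.0 in tumor macrophages (log2 ratios -2.01 and -1.01). Ifi27l2a went opposite ways, at 654 and 524 CPM in sorted and 225 and 461 in tumor macrophages (log2 ratios -0.65 and 0.70). The other membrane proteins passed 1.5-fold in the sorted cells and not in the tumor cells: Bst2 was at 305 and 189 CPM in sorted and 191 and 263 in tumor macrophages (log2 ratios -1.02 and 0.13) and Ifitm3 at 895 and 629.9 CPM in sorted and 576 and 868 in tumor macrophages (log2 ratios -0.84 and 0.26). Isg15 was likewise at 65.6 and 37.7 CPM in sorted and 15.3 and 19.9 in tumor macrophages (log2 ratios -1.13 and 0.04) and Ifit3 at 29.5 and 21.99 CPM in sorted and 25.7 and 28.1 in tumor macrophages (log2 ratios -0.76 and -0.20), whereas Ifit1 was at 28.9 and 47.0 CPM in sorted and 15.8 and 64.4 in tumor macrophages (log2 ratios 0.37 and 1.70) and Rsad2 at 103 and 125 CPM in sorted and 40.5 and 127 in tumor macrophages (log2 ratios -0.05 and 1.32). With equal weight per cell the tumor ratio of Rsad2 was -0.30. So 3 of 3 membrane restriction members were lower in sorted macrophages (2 when scaled by the total, without Ifitm3) and 1 of 3 in tumor macrophages, while 3 of 5 and 4 of 4 measured members of the oligoadenylate synthetase family were higher. The members not yet named (Herc6, Ifih1, Zbp1, Irf7, Dhx58, Oas1a, Oasl1, Xaf1, Rtp4 and Isg20) had ratios from -0.49 (Isg20) to 0.55 (Herc6) in sorted macrophages. In tumor macrophages Oasl1 was at 2.69, Herc6 at 1.83, Zbp1 at 1.80, Ifih1 at 1.30, Irf7 at 1.11 and Rtp4 at 1.01, all past 1.5-fold, and Xaf1, Dhx58 and Isg20 were at 0.45, -0.19 and -0.31. Beside these ratios, the neutrophil markers S100a8 and S100a9 were at 133 and 156 CPM in WT and 6.04 and 1.37 in KO sorted macrophages. They were thus lower in KO together with Ifitm1, whose highest sorted level was in neutrophils. All 7 neutrophil markers summed to 363 CPM in WT and 177 in KO sorted macrophages and 25.7 and 75.1 in tumor macrophages, and fibroblast markers to 12.1 and 21.3 and to 1049 and 324. Their part in the ratios was not tested.

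**Figure D2:**
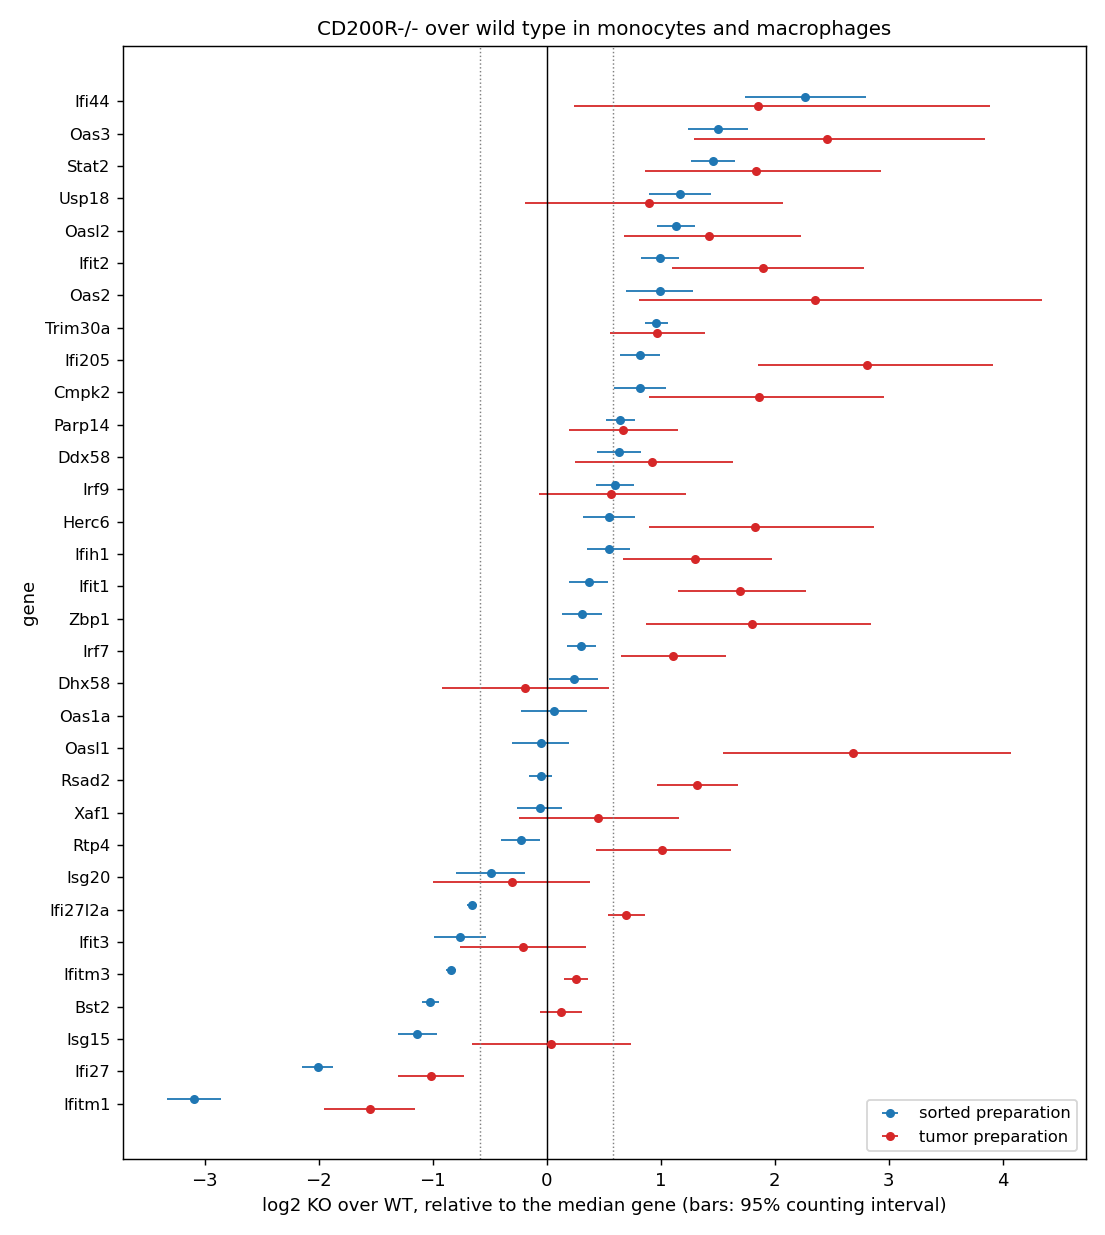
Log2 ratio of KO to WT, relative to the median gene, for each measured member in pooled macrophages of the sorted (blue) and tumor (red) preparations; bars are 95% counting intervals and dotted lines mark 1.5-fold. Ifitm1 (-3.09 and -1.55) and Ifi27 (-2.01 and -1.01) lie below the lower line in both preparations and 12 members lie above the upper line in both.

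The ratios followed transcript length in the sorted preparation. Across genes, which are not independent replicates, Spearman's rho between the KO to WT ratio and the longest transcript was 0.48 in sorted macrophages over all genes and 0.71 over the members, and 0.25 and 0.53 in tumor macrophages. In sorted macrophages genes under 1000 bases had a median log2 ratio of -0.66 and those of 3000 bases or more 0.31. Ifitm3 (678 bases), Isg15 (756 bases), Bst2 (792 bases) and Ifi27l2a (463 bases) are short, and Parp14 (7417 bases) is long. When each member was compared with genes of like length, 11 members were higher and 2 lower in sorted macrophages (median 0.42). The shares over all genes in that comparison were 17.4% and 16.9%. The 2 lower members were Ifitm1 (-2.30) and Ifi27 (-1.22), while Isg15 was at -0.45, Bst2 at -0.33 and Ifitm3 at -0.15. In tumor macrophages the same comparison gave 20 higher and 2 lower (median 1.12), beside 16.5% and 14.3% of all genes. Over all genes, rho lay between 0.35 and 0.60 across the sorted classes. The relation was weaker in graft cells of the tumor preparation, with a rho over all genes of 0.22 in fibroblast-named and 0.17 in NB-named cells.

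**Figure D3:**
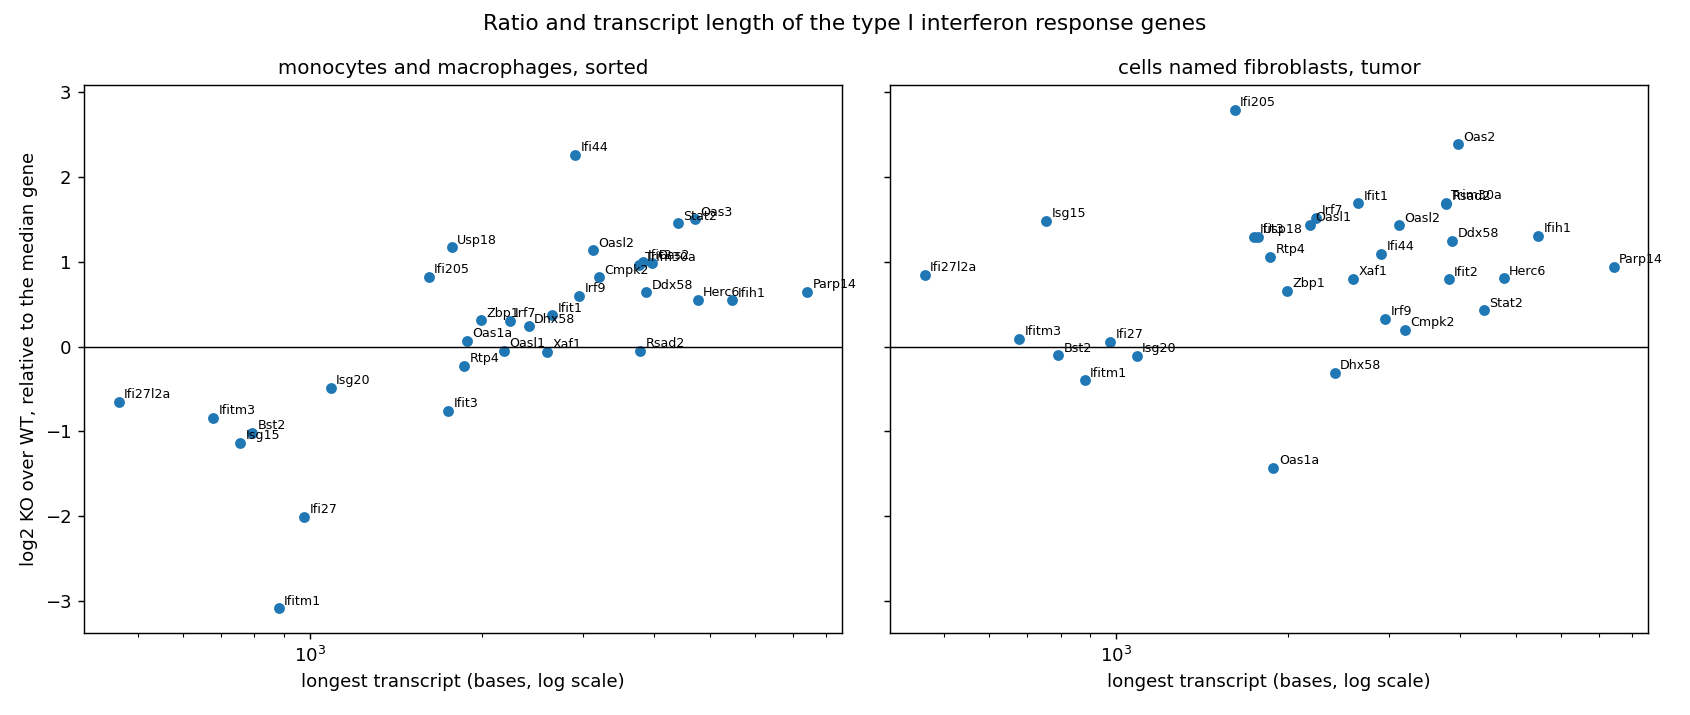
KO to WT log2 ratio of each measured member against the length of its longest transcript (bases, log axis) in sorted macrophages and in tumor cells named fibroblasts. Ratios are higher for longer transcripts in the left panel (rho 0.71 over the members) more than in the right (0.275). Over all genes, which are not drawn, rho was 0.48 and 0.22.

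The M1 and M2 macrophages differed in the balance of higher and lower members. In sorted M1 macrophages, 10 of 32 measured members were higher in KO and 8 lower (median log2 ratio 0.24), beside 21.3% and 23.7% of all genes; scaled by the total, 15 were higher and 6 lower. In tumor M1 macrophages, 10 of 23 measured members were higher in KO and 4 lower (median log2 ratio 0.54), beside 19.5% and 14.5% of all genes; scaled by the total, 14 were higher and 3 lower. Higher in both preparations in M1 cells were Ifit2, Oasl2, Stat2 and Cmpk2 (8.88% of all genes), and lower in both were Ifitm1, Ifi27 and Ifi27l2a (8.19%). Ifit2 was at 7.94 and 26.9 CPM in sorted (log2 ratio 1.45) and 2.71 and 19.6 in tumor cells (2.61, from 3 and 22 UMIs, interval 0.88 to 4.995). Ifi27l2a was at 548 and 246 CPM in sorted (log2 ratio -1.46) and 372 and 202 in tumor cells (-1.12). Isg15 was the 1 member that went opposite ways (1.51%), at 19.7 and 8.69 CPM in sorted (log2 ratio -1.49) and 7.21 and 16.1 in tumor cells (0.91). Sorted M1 cells had their lowest ratios for Ifitm1 (23.6 CPM in WT and 3.36 in KO, -3.12), Ifi27 (207 CPM in WT and 74.0 in KO, -1.79) and Isg15 (19.7 CPM in WT and 8.69 in KO, -1.49) and their highest for Ifi44 (0.160 CPM in WT and 4.34 in KO, 4.46), Stat2 (8.98 CPM in WT and 35.1 in KO, 1.66) and Cmpk2 (3.55 CPM in WT and 13.8 in KO, 1.65); the Ifi44 value rests on 4 and 22 UMIs. Tumor M1 cells had their lowest for Dhx58 (23.4 CPM in WT and 12.5 in KO, -1.16), Ifi27l2a (372 CPM in WT and 202 in KO, -1.12) and Ifi27 (156 CPM in WT and 98.1 in KO, -0.92) and their highest for Ifit1 (5.41 CPM in WT and 70.4 in KO, 3.46), Cmpk2 (2.71 CPM in WT and 24.1 in KO, 2.91, from 3 and 27 UMIs, interval 1.21 to 5.27) and Ifit2 (2.71 CPM in WT and 19.6 in KO, 2.61, from 3 and 22 UMIs, interval 0.88 to 4.995).

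In sorted M2 macrophages, 6 of 32 measured members were higher in KO and 10 lower (median log2 ratio -0.10), beside 19.2% and 22.2% of all genes; scaled by the total, 11 were higher and 6 lower. In tumor M2 macrophages, 22 of 30 measured members were higher in KO and 2 lower (median log2 ratio 1.31), beside 25.4% and 23% of all genes. Higher in both preparations in M2 cells were Oas2, Oas3, Oasl2, Stat2 and Trim30a (6.79% of all genes), and lower in both were Ifitm1 and Ifi27 (6.67%). Opposite were 3 members (6.01%), each lower in sorted and higher in tumor KO cells. Rsad2 was at 301 and 229 CPM in sorted (log2 ratio -0.78) and 54.0 and 149.6 in tumor cells (1.06). Oasl1 was at 40.1 and 30.4 CPM in sorted (log2 ratio -0.78) and 4.50 and 41.4 in tumor cells (2.79). Rtp4 was at 87.0 and 66.5 CPM in sorted (log2 ratio -0.77) and 15.3 and 63.7 in tumor cells (1.64). The WT tumor level was the lowest of the 4 libraries for each of these 3 genes. Beside the tumor M2 ratios, the macrophage markers Csf1r and C1qa were at 39.6 and 319 CPM in WT and 249.3 and 924 in KO. The 13 macrophage markers summed to 3491 and 9489 CPM. Fibroblast markers summed to 1396 in the 81 WT and 388 in the 168 KO cells. The part of these markers was not tested. Sorted M2 cells had their lowest ratios for Ifitm1 (399 CPM in WT and 36.6 in KO, -3.82), Ifi27 (90.02 CPM in WT and 30.7 in KO, -1.93) and Isg15 (203 CPM in WT and 77.3 in KO, -1.77) and their highest for Ifi44 (5.60 CPM in WT and 15.9 in KO, 1.12), Oas3 (23.1 CPM in WT and 57.9 in KO, 0.94) and Stat2 (28.7 CPM in WT and 66.0 in KO, 0.82). Tumor M2 cells had their lowest for Ifitm1 (119.8 CPM in WT and 38.2 in KO, -2.06), Ifi27 (93.7 CPM in WT and 54.1 in KO, -1.20) and Isg15 (23.4 CPM in WT and 24.4 in KO, -0.35) and their highest for Ifi205 (6.30 CPM in WT and 77.5 in KO, 3.21), Ifi27l2a (79.3 CPM in WT and 769 in KO, 2.87) and Oasl1 (4.50 CPM in WT and 41.4 in KO, 2.79).

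Set against the sorted preparation of the same genotype, tumor macrophages held less of many members, and more members were lower in WT than in KO cells. In WT, 0 of 32 members were higher and 21 lower in tumor than in sorted macrophages (median -0.87; 24% and 21.1% of all genes). In KO, 1 was higher, Ifitm1 (1.11), and 12 were lower (median -0.26; 22.6% and 20%). In M2 macrophages 0 and 30 were higher and lower in WT (median -1.87; 31% and 32.9%) and 2 and 14 in KO (median -0.50; 24.4% and 22.5%). In M1 macrophages 3 and 13 of 31 were higher and lower in WT (median -0.45; 14.3% and 11.7%) and 10 and 7 in KO (median 0.08; 21.5% and 20.2%). Beside the M2 ratios, the macrophage marker Csf1r was at 299.2 CPM in sorted and 39.6 in tumor WT M2 macrophages, and C1qa at 1347 and 319. In KO M2 macrophages Csf1r was at 417.3 and 249.3 CPM, and C1qa at 1265 and 924. The fibroblast-marker sums given above were higher in tumor than in sorted macrophages of both genotypes. The part of these markers in the ratios was not tested. The sort and the difference in depth between preparations cannot be told apart in these ratios either.

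The tumor-preparation cells named fibroblasts and NB, called graft cells here whatever their origin, carried low levels of most members, and most were higher in the KO host. In tumor cells named fibroblasts (2461 WT and 2493 KO) 21 of 31 measured members were higher and 1 lower, with a median of 0.94, beside 19.3% and 16.6% of all genes. In tumor cells named NB (1665 WT and 1283 KO) 18 of 30 were higher and 2 lower, with a median of 0.90, beside 16.4% and 16.2%. Thinned to a common depth, 7 were higher and 0 lower. Fewer genes can be measured after thinning, and these 2 counts stand without a share over all genes, so they cannot be set directly against 18 of 30. The member with the highest ratio in both was Ifi205, at 1.87 and 15.99 CPM in fibroblast-named cells, from 90 and 755 UMIs, a log2 ratio of 2.79 (2.48 to 3.13). It was at 0.318 and 10.1 in NB-named cells, from 16 and 422 UMIs, a log2 ratio of 4.78 (4.07 to 5.60). Of all Ifi205 UMIs of the KO tumor library, 50.7% lay in fibroblast-named, 28.4% in NB-named cells and 5.51% in macrophages, whereas B cells of that library held 0, which allows up to 7.21 CPM.

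Among the RNA-binding Ifit proteins, Ifit1 was at 7.31 and 29.1 CPM in fibroblast-named (log2 ratio 1.69) and 0.358 and 5.39 in NB-named cells (3.71). Ifit3 was at 4.92 and 14.9 CPM in fibroblast-named (log2 ratio 1.30) and 0.259 and 3.33 in NB-named cells (3.48). Both hold 2 copies of the response element in the promoters printed above. A single KO fibroblast-named cell held 326 of the 1376 Ifit1 UMIs, and without the highest cell of each library the Ifit1 ratio was 1.59; all 21 and 18 calls of higher members in the 2 cell types remained without those cells. Ifit2 was at 4.24 and 9.07 CPM in fibroblast-named (log2 ratio 0.79) and 7.93 and 10.1 in NB-named cells (0.14). In the Isg15 system, Isg15 was at 4.40 and 15.2 CPM in fibroblast-named (log2 ratio 1.49) and 1.87 and 5.01 in NB-named cells (1.22) and Usp18 at 0.727 and 2.20 CPM in fibroblast-named (log2 ratio 1.30) and 0.139 and 1.13 in NB-named cells (2.81). Rsad2 was at 1.39 and 5.53 CPM in fibroblast-named (log2 ratio 1.69) and 0.557 and 2.95 in NB-named cells (2.20). Trim30a was at 2.22 and 8.88 CPM in fibroblast-named (log2 ratio 1.69) and 0.915 and 4.10 in NB-named cells (1.96). Irf7 was at 2.99 and 10.6 CPM in fibroblast-named (log2 ratio 1.52) and 1.05 and 2.56 in NB-named cells (1.08), and Zbp1, a sensor of Z-form nucleic acid, at 1.35 and 2.63 CPM in fibroblast-named (log2 ratio 0.66) and 0.199 and 1.08 in NB-named cells (2.23). Each of these members was under 30 CPM in these cells.

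The RNA sensors Ddx58 and Ifih1 were also higher in KO. Ddx58 was at 7.46 and 21.8 CPM in fibroblast-named (log2 ratio 1.25) and 4.35 and 10.2 in NB-named cells (1.02) and Ifih1, which encodes the RNA sensor MDA5, at 5.44 and 16.6 CPM in fibroblast-named (log2 ratio 1.31) and 3.48 and 9.39 in NB-named cells (1.23). Xaf1, a protein linked to cell death, was at 11.8 and 25.4 CPM in fibroblast-named (log2 ratio 0.80) and 9.64 and 26.7 in NB-named cells (1.26). Oasl1 was at 0.769 and 2.56 CPM in fibroblast-named (log2 ratio 1.43) and 0.656 and 1.29 in NB-named cells (0.77) and Oasl2 at 4.53 and 15.1 CPM in fibroblast-named (log2 ratio 1.43) and 1.49 and 4.31 in NB-named cells (1.33). The membrane proteins and Ifi27, which have the highest levels, differed by under 1.5-fold: Ifitm3 was at 428 and 561 CPM in fibroblast-named (log2 ratio 0.09) and 319 and 340.2 in NB-named cells (-0.11), Bst2 at 114 and 131 CPM in fibroblast-named (log2 ratio -0.10) and 97.6 and 87.1 in NB-named cells (-0.37), Ifitm1 at 229 and 215 CPM in fibroblast-named (log2 ratio -0.40) and 164 and 146 in NB-named cells (-0.37) and Ifi27 at 60.9 and 78.1 CPM in fibroblast-named (log2 ratio 0.06) and 49.1 and 52.9 in NB-named cells (-0.10). Stat2, called higher in macrophages of both preparations, was at 5.46 and 9.07 CPM in fibroblast-named (log2 ratio 0.43) and 4.28 and 5.66 in NB-named cells (0.20). The other members ran from -0.11 (Isg20) to 1.09 (Ifi44) in fibroblast-named cells, apart from Dhx58 at -0.31, and from -0.10 (Isg20) to 1.46 (Rtp4) in NB-named cells; these were Ifi44, Rtp4, Parp14, Ifi27l2a, Herc6, Irf9, Cmpk2 and Isg20. Lower in KO were Oas1a in both cell types (29 and 13 UMIs, -1.43, in fibroblast-named and -2.88, from 23 and 3 UMIs, interval -5.25 to -1.15, in NB-named cells) and, in NB-named cells, Dhx58, which encodes LGP2 (2.52 and 0.983 CPM, -1.57). Oas2 had 3 and 19 UMIs in fibroblast-named cells, a ratio of 2.39 (0.62 to 4.79), and 0 and 5 in NB-named cells. Oas3 had 0 UMIs in WT cells of both names and 9 and 7 in KO cells, too few to be measured.

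**Figure D4:**
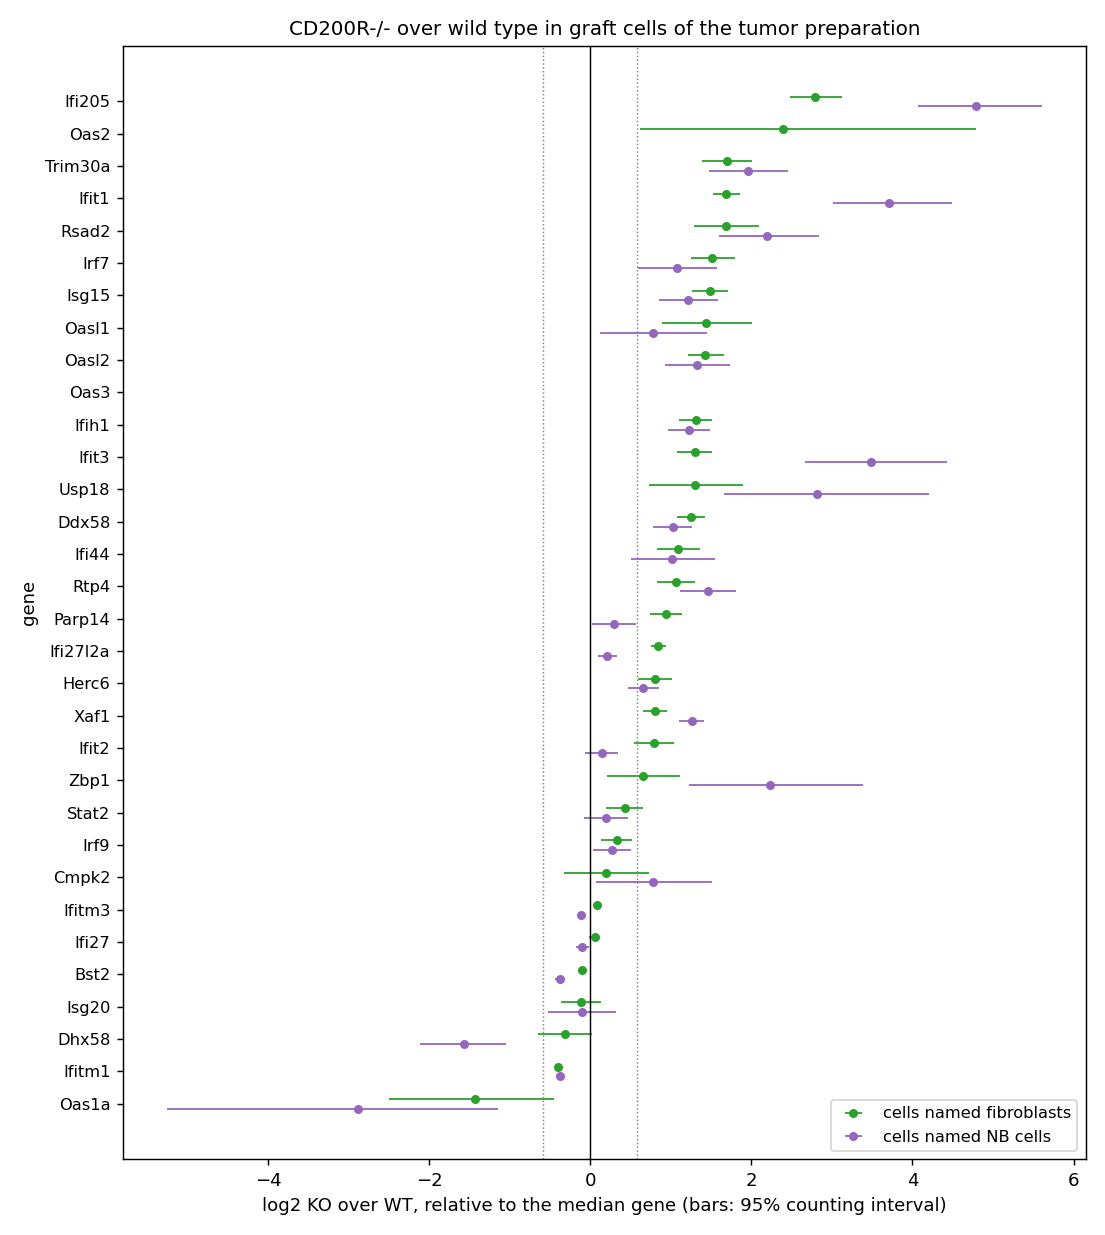
Log2 ratio of KO to WT, relative to the median gene, for each measured member in tumor-preparation cells named fibroblasts (green) and NB (purple); bars are 95% counting intervals and dotted lines mark 1.5-fold. Ifi205 is highest in both (2.79 and 4.78), and Ifitm1, Ifitm3, Bst2 and Ifi27 lie between the dotted lines in both.

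By role, 3 of 3 Ifit members were higher in fibroblast-named and 2 of 3 in NB-named cells, 3 of 3 members of the Isg15 system in each, 4 of 5 sensors in each (1 lower in NB-named cells), 1 of 3 transcription factors in each and 0 of 3 membrane restriction members in each. Members with the response element in the promoter window had a median ratio of 1.30 in fibroblast-named cells (12 members), those without it 0.80 (11 members) and those with no promoter entry 0.89 (8 members). In NB-named cells the medians were 1.22, 0.77 and 0.30. In tumor macrophages the order was different, at 1.14, 1.43 and 0.80, and in sorted macrophages it was 0.37, 0.55 and 0.28. In tumor fibroblast-named cells macrophage markers summed to 312 CPM in WT and 179 in KO, and in NB-named cells to 198 and 99.6. Single markers did not all go the way of the sum. Csf1r was at 0.229 and 0.847 CPM in fibroblast-named and 0.199 and 0.815 in NB-named cells. C1qa was at 1.77 and 3.64 CPM in fibroblast-named and 2.92 and 2.44 in NB-named cells. Fibroblast markers summed to 3188 and 2150 in fibroblast-named and 2643 and 1042 in NB-named cells. The part of macrophage and fibroblast markers in the ratios was not tested.

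The sorted libraries also held cells that the authors named fibroblasts and NB, but these are not shown to be the same populations as in the tumor libraries. Macrophage markers summed to 12984 CPM in WT and 2817 in KO sorted NB-named cells and to 1662 and 160 in sorted fibroblast-named cells, so both WT sums and the KO NB-named sum lay far above the tumor sums. C1qa was at 1565 CPM in WT sorted and 2.92 in WT tumor NB-named cells. In sorted fibroblast-named cells (164 WT and 78 KO) 13 of 25 members were higher and 5 lower (median 0.58; 25.3% and 27.6% of all genes), and in sorted NB-named cells (205 and 171) 12 of 31 and 8 (median 0.35; 25.5% and 26.7%). Scaled by the total, 15 and 1 were higher and lower in the former and 16 and 5 in the latter. Higher in both preparations were 11 of 25 measured members in fibroblast-named cells (Ifit1, Ifit2, Isg15, Oasl2, Ifi44, Ifih1, Ddx58, Ifi205, Xaf1, Parp14 and Herc6), beside 11% of all genes, 0 were lower in both, beside 11.5%, and 1 went opposite ways, beside 1.53%. That was Ifi27l2a, at 81.5 and 59.7 CPM in sorted (log2 ratio -0.86) and 28.1 and 62.5 in tumor cells (0.85). In NB-named cells 9 of 29 were higher in both (Ifit1, Usp18, Ddx58, Ifi205, Xaf1, Zbp1, Cmpk2, Trim30a and Herc6), beside 7.28%, and Oas1a and Dhx58 were lower in both, beside 8.67%. Rtp4 went opposite ways (2.41%), at 14.9 and 10.6 CPM in sorted (log2 ratio -0.77) and 1.93 and 6.11 in tumor cells (1.46). Sorted fibroblast-named cells had their lowest ratios for Ifitm1 (253 CPM in WT and 158 in KO, -1.09), Isg20 (10.7 CPM in WT and 7.46 in KO, -0.93) and Ifi27l2a (81.5 CPM in WT and 59.7 in KO, -0.86) and their highest for Ifi205 (3.12 CPM in WT and 34.1 in KO, 3.04), Ifi44 (2.67 CPM in WT and 13.8 in KO, 1.96) and Ddx58 (8.02 CPM in WT and 41.6 in KO, 1.96). Sorted NB-named cells had their lowest for Ifi27 (129 CPM in WT and 34.8 in KO, -2.16), Oas1a (4.72 CPM in WT and 1.95 in KO, -1.55) and Ifitm3 (320.3 CPM in WT and 141 in KO, -1.46) and their highest for Ifi205 (4.97 CPM in WT and 29.8 in KO, 2.31), Cmpk2 (1.99 CPM in WT and 9.47 in KO, 1.98) and Usp18 (2.85 CPM in WT and 12.2 in KO, 1.83). The leading genes of sorted fibroblast-named cells were Ighg1 and Jchain. The part of these 2 genes' source cells and of the macrophage markers in these ratios was not tested.

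At a common depth of 2000 UMIs, few graft cells held several members at once, and their share was larger in KO. Each cell was thinned to 2000 UMIs so that depth did not set the count, and shallower cells were left out (4 WT and 9 KO fibroblast-named, 0 of the NB-named, 48 and 134 tumor macrophages). Of tumor fibroblast-named cells, 1.67% in WT (41 of 2457; exact binomial 95% interval 1.20% to 2.26%) and 7.005% in KO (174 of 2484; 6.03% to 8.08%) had UMIs of at least 5 different members. Of NB-named cells, 0.12% in WT (2 of 1665) and 1.87% in KO (24 of 1283; 1.20% to 2.77%) did. The most members in 1 cell were 11 in WT and 17 in KO fibroblast-named cells and 5 and 9 in NB-named cells. Unthinned, the shares were 55.7% and 68.9% and 68.8% and 78.6%. As cells of low level in the same libraries, 0 of 150 WT (which allows up to 2%) and 1 of 148 KO cells named hematopoietic stem cells reached 5 members, and 0 of 153 WT and 2 of 243 KO cells named cancer stem cells.

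The KO fibroblast-named cells with at least 5 members held more macrophage-marker RNA than the rest, at 496 against 161 CPM, and more fibroblast-marker RNA, at 4138 against 2035. In WT the 41 such cells held 331 CPM of macrophage markers and the rest 312. In KO NB-named cells the 24 cells with at least 5 members held 106 CPM of macrophage markers and the rest 99.5, and 2301 against 1021 CPM of fibroblast markers. The part of these markers in the counts per cell was not tested. Of tumor macrophages 8.39% in WT (12 of 143) and 21.5% in KO (51 of 237) had at least 5 members, with at most 15 and 20, and of sorted macrophages 16.7% (250 of 1497) and 25.6% (168 of 657); unthinned, these shares were 42.9% and 35.3% in tumor and 78.3% and 61.9% in sorted cells, the other way round. For at least 3 members the thinned difference in sorted macrophages was -0.10 percentage points. Thinned shares in M2 macrophages were 29.2% and 37.0% in sorted and 6.85% and 28.8% in tumor cells, and in M1 macrophages 7.95% and 10.3%, and 10.0% and 13.4%. WT sorted neutrophils had the highest share, 39.9% (130 of 326). NK cells stood at 1.17% in WT (2 of 171) and 6.72% in KO (17 of 253), while sorted B cells (3.92% and 4.75%), T cells (4.91% and 3.98%) and dendritic cells (11.1% and 11.8%) differed by under 1 percentage point.

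**Figure D5:**
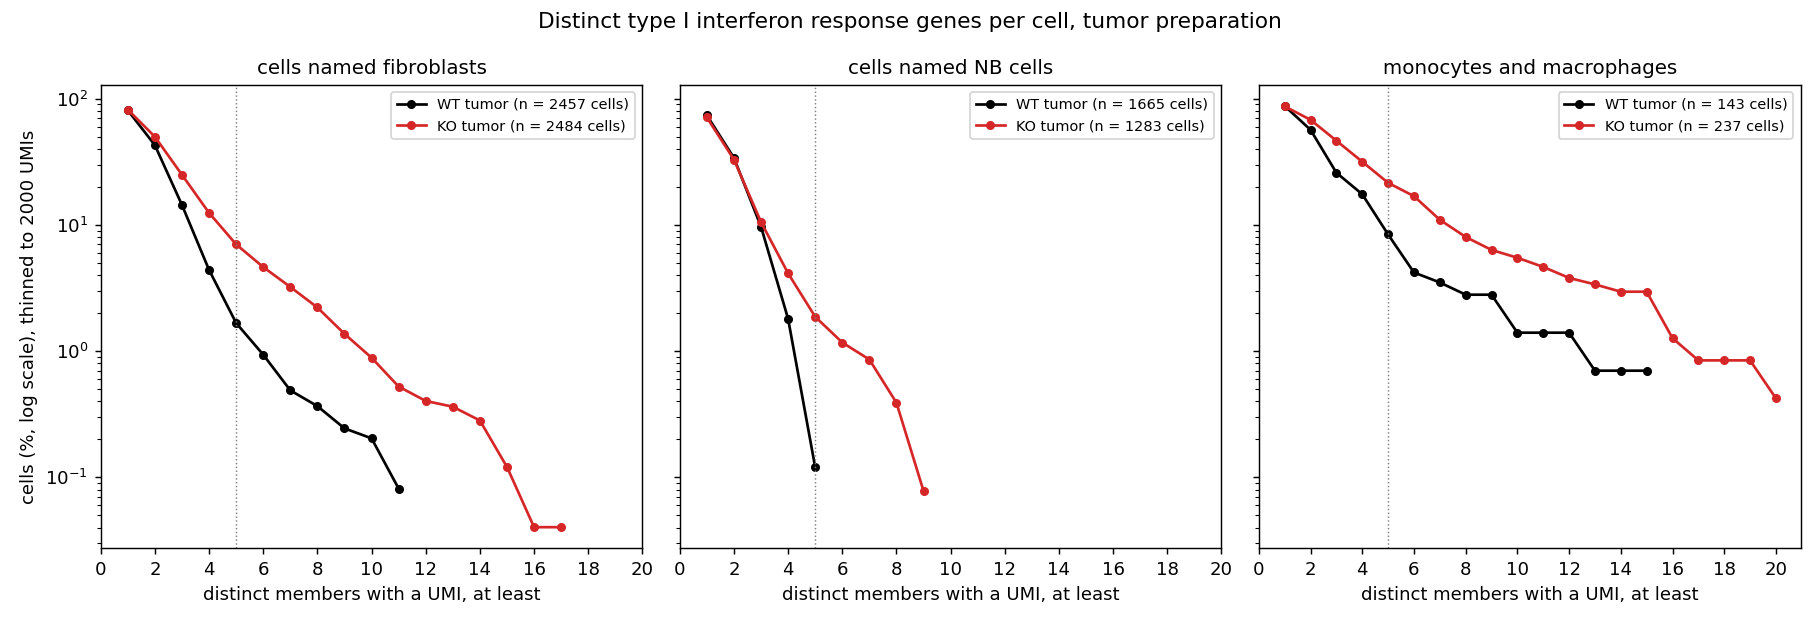
Share of tumor-preparation cells (percent, log axis) with UMIs of at least the given number of different members, after thinning to 2000 UMIs, in cells named fibroblasts, cells named NB and macrophages; lines are the WT and KO libraries and the dotted line marks 5 members. The KO line lies above the WT line at 5 members in each panel (7.005% against 1.67%, 1.87% against 0.12% and 21.5% against 8.39%).

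T cells of the sorted preparation had more members lower than higher in KO relative to the median gene. In pooled T cells (637 WT and 617 KO cells), 2 of the 26 measured members were higher in KO and 13 lower, with a median log2 ratio of -0.54; the shares over all genes were 22.7% higher and 25.7% lower. Scaled by the total, 6 were higher and 8 lower. The lowest log2 ratios there were those of Ifit3 (24.0 CPM in WT and 4.06 in KO, -3.13), Isg15 (17.6 CPM in WT and 3.61 in KO, -2.86) and Ifi27 (160 CPM in WT and 43.8 in KO, -2.44). The highest were those of Rsad2 (3.34 CPM in WT and 9.93 in KO, 1.00), Trim30a (55.9 CPM in WT and 130.5 in KO, 0.65) and Oas3 (9.11 CPM in WT and 19.4 in KO, 0.52). In CD4 T cells, 1 of 18 measured members were higher in KO and 8 lower (median log2 ratio -0.51), beside 25.4% and 28.9% of all genes; scaled by the total, 6 were higher and 8 lower. The lowest ratios were those of Isg15 (20.6 CPM in WT and 3.37 in KO, -3.17, from 22 and 2 UMIs, interval -6.30 to -1.15), Ifi27 (124 CPM in WT and 30.3 in KO, -2.60) and Oasl2 (18.7 CPM in WT and 6.73 in KO, -2.03), and the highest those of Trim30a (48.6 CPM in WT and 116 in KO, 0.70), Irf9 (43.9 CPM in WT and 89.2 in KO, 0.46) and Ifit2 (19.6 CPM in WT and 37.0 in KO, 0.36). In CD8 T cells, 1 of 21 measured members were higher in KO and 10 lower (median log2 ratio -0.49), beside 23.7% and 26.9% of all genes; scaled by the total, 7 were higher and 5 lower. The lowest ratios were those of Ifit3 (30.5 CPM in WT and 5.14 in KO, -3.14), Isg15 (15.3 CPM in WT and 0 in KO, at most -2.87) and Ifit1 (32.6 CPM in WT and 8.23 in KO, -2.55), and the highest those of Stat2 (4.16 CPM in WT and 14.4 in KO, 1.22), Oas3 (9.71 CPM in WT and 21.6 in KO, 0.58) and Trim30a (54.8 CPM in WT and 112 in KO, 0.46). In CD8+ effectors, 3 of 21 measured members were higher in KO and 9 lower (median log2 ratio -0.39), beside 23.9% and 25.5% of all genes; scaled by the total, 6 were higher and 6 lower. The lowest ratios were those of Ifit3 (23.03 CPM in WT and 4.63 in KO, -2.76, from 18 and 3 UMIs, interval -5.17 to -0.98), Ifi27 (180.4 CPM in WT and 44.7 in KO, -2.46) and Isg20 (30.7 CPM in WT and 13.9 in KO, -1.59), and the highest those of Ifit2 (6.40 CPM in WT and 26.2 in KO, 1.59), Rsad2 (7.68 CPM in WT and 24.7 in KO, 1.24) and Trim30a (67.8 CPM in WT and 171 in KO, 0.89). In pooled T cells Isg15, Ifit3 and Ifi27 were thus far lower in KO while Trim30a was higher.

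In Tregs (94 WT and 396 KO cells), 5 of the 28 measured members were higher in KO and 8 lower, with a median log2 ratio of -0.10; the shares over all genes were 25.4% higher and 25.4% lower. Scaled by the total, 9 were higher and 6 lower. The lowest log2 ratios there were those of Isg15 (97.2 CPM in WT and 28.2 in KO, -2.19), Ifit3 (77.8 CPM in WT and 33.1 in KO, -1.64) and Ifi27 (152 CPM in WT and 70.0 in KO, -1.52). The highest were those of Rsad2 (9.72 CPM in WT and 65.0 in KO, 2.34), Ifi44 (5.83 CPM in WT and 19.0 in KO, 1.30, from 3 and 31 UMIs, interval -0.38 to 3.65) and Oasl2 (9.72 CPM in WT and 23.3 in KO, 0.86). In NK cells (186 WT and 287 KO cells), 12 of the 30 measured members were higher in KO and 8 lower, with a median log2 ratio of 0.42; the shares over all genes were 24.6% higher and 27.7% lower. Scaled by the total, 17 were higher and 7 lower. The lowest log2 ratios there were those of Ifitm1 (135 CPM in WT and 2.04 in KO, -6.42), Ifitm3 (131 CPM in WT and 44.4 in KO, -1.93) and Isg20 (23.7 CPM in WT and 8.67 in KO, -1.82). The highest were those of Ifi44 (2.08 CPM in WT and 26.5 in KO, 3.31), Ifi205 (2.50 CPM in WT and 14.3 in KO, 2.15) and Usp18 (8.32 CPM in WT and 31.6 in KO, 1.56). The Ifitm1 value in NK cells rests on 325 and 4 UMIs. Beside it, S100a8 was at 131 CPM in WT and 1.02 in KO NK cells, S100a9 at 202 and 1.53 and C1qa at 357 and 13.8. The part of neutrophil and macrophage RNA was not tested. With doublets removed the NK cell median was 1.31. In B cells (972 WT and 943 KO cells), 10 of the 26 measured members were higher in KO and 9 lower, with a median log2 ratio of 0.13; the shares over all genes were 24.7% higher and 27.4% lower. The lowest log2 ratios there were those of Ifitm3 (15.99 CPM in WT and 5.81 in KO, -1.90), Ifit3 (12.2 CPM in WT and 4.47 in KO, -1.88) and Ifi27 (75.2 CPM in WT and 33.5 in KO, -1.60). The highest were those of Oas3 (3.84 CPM in WT and 13.8 in KO, 1.42), Oas2 (2.88 CPM in WT and 8.49 in KO, 1.12) and Rsad2 (2.24 CPM in WT and 6.26 in KO, 1.05). In both preparations 1 member, Irf9, passed 1.5-fold upward in B cells (13% of all genes), with a tumor interval that spans 0, and Bst2 was lower (12.3%), and no member went opposite ways (3.65%). Irf9 was at 36.5 and 77.8 CPM in sorted (log2 ratio 0.66) and 22.4 and 62.5 in tumor cells (1.14, from 2 and 26 UMIs, interval -0.85 to 4.26). Bst2 was at 76.4 and 46.0 CPM in sorted (log2 ratio -1.17) and 101 and 48.1 in tumor cells (-1.40). In tumor B cells, 1 of 7 measured members were higher in KO and 2 lower (median log2 ratio 0.09), beside 27.1% and 20.3% of all genes; scaled by the total, 2 were higher and 2 lower. Their lowest ratios were those of Bst2 (101 CPM in WT and 48.1 in KO, -1.40), Parp14 (78.5 CPM in WT and 43.3 in KO, -1.19) and Ifi27l2a (482 CPM in WT and 579 in KO, -0.07), and the highest those of Irf9 (22.4 CPM in WT and 62.5 in KO, 1.14, from 2 and 26 UMIs, interval -0.85 to 4.26), Trim30a (78.5 CPM in WT and 123 in KO, 0.31) and Ddx58 (33.6 CPM in WT and 45.7 in KO, 0.11, from 3 and 19 UMIs, interval -1.66 to 2.51).

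Neutrophils, which held the highest levels, had more members lower than higher in KO relative to the median gene. In sorted neutrophils (432 WT and 87 KO cells), 2 of the 28 measured members were higher in KO and 13 lower, with a median log2 ratio of -0.49; the shares over all genes were 29.6% higher and 30% lower. Scaled by the total, 8 were higher and 8 lower, with a median of 0.016 for the members and 0.51 for the median gene. The lowest log2 ratios there were those of Xaf1 (44.7 CPM in WT and 5.41 in KO, -3.56, from 61 and 1 UMIs, interval -8.88 to -1.02), Bst2 (38.9 CPM in WT and 5.41 in KO, -3.35, from 53 and 1 UMIs, interval -8.68 to -0.81) and Isg20 (426 CPM in WT and 146 in KO, -2.05). The highest were those of Ifit2 (21.3 CPM in WT and 64.9 in KO, 1.101), Oas2 (30.8 CPM in WT and 70.3 in KO, 0.68) and Parp14 (65.2 CPM in WT and 124 in KO, 0.42). Dendritic cells were mixed. In pooled dendritic cells (193 WT and 331 KO cells), 8 of the 32 measured members were higher in KO and 9 lower, with a median log2 ratio of 0.20; the shares over all genes were 18.1% higher and 18.7% lower. Scaled by the total, 13 were higher and 5 lower. The lowest log2 ratios there were those of Ifitm1 (577 CPM in WT and 137 in KO, -2.36), Ifi27 (72.0 CPM in WT and 18.3 in KO, -2.27) and Isg20 (18.6 CPM in WT and 9.34 in KO, -1.29). The highest were those of Oasl1 (4.53 CPM in WT and 27.4 in KO, 2.31), Cmpk2 (1.76 CPM in WT and 7.05 in KO, 1.71) and Ifit2 (4.53 CPM in WT and 17.7 in KO, 1.68). In myeloid dendritic cells, 6 of 31 measured members were higher in KO and 10 lower (median log2 ratio -0.23), beside 17.3% and 17.3% of all genes; scaled by the total, 9 were higher and 7 lower. The lowest ratios were those of Ifitm1 (653 CPM in WT and 117 in KO, -2.74), Ifi27 (89.2 CPM in WT and 20.97 in KO, -2.35) and Isg20 (19.7 CPM in WT and 9.35 in KO, -1.34), and the highest those of Cmpk2 (0.789 CPM in WT and 8.39 in KO, 3.15, from 2 and 26 UMIs, interval 1.15 to 6.27), Oasl1 (1.97 CPM in WT and 7.10 in KO, 1.58) and Stat2 (11.8 CPM in WT and 37.7 in KO, 1.41).

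Few members were measured in the remaining classes. In sorted cells named cancer stem cells, 0 of 8 measured members were higher in KO and 6 lower (median log2 ratio -2.94), beside 28.8% and 28.3% of all genes. The lowest ratios were those of Isg20 (91.1 CPM in WT and 4.45 in KO, -4.54, from 72 and 1 UMIs, interval -9.87 to -2.02), Rsad2 (86.0 CPM in WT and 4.45 in KO, -4.46, from 68 and 1 UMIs, interval -9.79 to -1.94) and Ifi27 (68.3 CPM in WT and 4.45 in KO, -4.13, from 54 and 1 UMIs, interval -9.46 to -1.59), and the highest those of Ifitm1 (27.8 CPM in WT and 40.1 in KO, 0.34), Bst2 (51.9 CPM in WT and 71.3 in KO, 0.27) and Ifitm3 (129 CPM in WT and 75.7 in KO, -0.96). In tumor cells of that name, 2 of 7 measured members were higher in KO and 1 lower (median log2 ratio -0.27), beside 23.7% and 15.7% of all genes; scaled by the total, 3 were higher and 0 lower. The lowest were those of Ifitm1 (172 CPM in WT and 139 in KO, -0.67), Ifitm3 (318 CPM in WT and 293 in KO, -0.49) and Ifi27l2a (29.1 CPM in WT and 30.6 in KO, -0.30), and the highest those of Rsad2 (5.81 CPM in WT and 15.9 in KO, 1.08), Xaf1 (4.65 CPM in WT and 10.8 in KO, 0.85) and Ifi27 (38.4 CPM in WT and 68.8 in KO, 0.47). 0 members were higher in both preparations (8.89% of all genes) or lower in both (6.79%), and Rsad2 went opposite ways (2.93%). In sorted cells named hematopoietic stem cells, 6 of 14 measured members were higher in KO and 5 lower (median log2 ratio 0.26), beside 24.2% and 26.5% of all genes; scaled by the total, 7 were higher and 2 lower. The lowest ratios were those of Ifitm3 (42.4 CPM in WT and 20.9 in KO, -1.38), Ifi27l2a (241 CPM in WT and 134 in KO, -1.21) and Ddx58 (35.1 CPM in WT and 24.1 in KO, -0.90), and the highest those of Oasl1 (4.85 CPM in WT and 35.4 in KO, 2.51), Herc6 (10.9 CPM in WT and 53.1 in KO, 1.93) and Xaf1 (9.70 CPM in WT and 33.8 in KO, 1.44). In tumor cells of that name, 1 of 5 measured members were higher in KO and 1 lower (median log2 ratio -0.56), beside 19.9% and 20.9% of all genes; scaled by the total, 2 were higher and 0 lower. The lowest were those of Ifitm1 (81.3 CPM in WT and 55.1 in KO, -0.78), Bst2 (61.0 CPM in WT and 47.4 in KO, -0.58) and Ifitm3 (122 CPM in WT and 96.1 in KO, -0.56), and the highest was that of Xaf1 (0.68). Xaf1 was higher in both preparations (6.76%), with 0 members lower in both (8.14%) and 0 opposite (4.56%).

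Across the 14 comparable sorted cell types by the authors' names, relative to the median gene, Ifi27 was lower in KO in 13, Bst2 in 11, Ifitm3 in 10 of 11, Isg15 in 10 of 12, Isg20 in 10 of 12 and Ifi27l2a in 10 of 14. Ifit3 was lower in 8 of 10 and Rtp4 in 9 of 12. Stat2 and Trim30a were each higher in 9 of 13 and above 0 in all 13, Ifit2 was higher in 7 of 12 and Ifi44 in 5 of 5. Of the lower members named here, Ifi27, Bst2, Ifitm3, Isg15 and Ifi27l2a have transcripts under 1000 bases. Isg20 (1087 bases), Ifit3 (1745 bases) and Rtp4 (1859 bases) have longer ones. The sorted KO library, the shallowest, was shared by all the sorted types, and the part of length and depth in these counts was not tested. In single sorted types 17.3% to 30% of all genes were lower in KO. The share of all genes called in as many types was not counted in either preparation. In the tumor preparation, Ifi205 was higher in 3 of 3 types, Rsad2 in 5 of 5, Ifit1, Oasl2, Ifih1 and Herc6 in 4 of 4 each, and Xaf1 in 5 of 6, while Ifitm1 was lower in 4 of 6, Oas1a in 2 of 2 and Dhx58 in 2 of 4, and Isg20 was past 1.5-fold in 0 of 4.

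The ligands and the receptor pathway upstream of the members were taken from lists chosen by function. The receptor and signaling list includes Stat2, Irf9 and Usp18, which are also members, so it is not separate from them. Each was already called higher in sorted macrophages, Stat2 and Usp18 also in tumor macrophages, and Usp18 also in graft cells. Of 20 type I and type III interferon genes, 2 had values (Ifnb1 and Ifnz), and Ifnb1 had 8 UMIs in all, in 4 WT sorted macrophages. Of 16 receptor and signaling genes, 9 were higher and 1 lower in sorted KO macrophages (median 0.62) and 8 and 0 in tumor macrophages (median 0.62), with 4 and 1 in tumor fibroblast-named (0.31) and 3 and 1 in NB-named cells (0.21). Beside these and the lists that follow, 21.5% and 23.5% of all genes were higher and lower in sorted and 17.7% and 15.2% in tumor macrophages. In fibroblast-named cells the shares were 19.3% and 16.6%, and in NB-named cells 16.4% and 16.2%. The receptor counts in the graft cells lay near these shares. Ifnar1 had ratios of 0.33, 0.67, 0.51 and 0.46 in the same order of sorted macrophages, tumor macrophages, fibroblast-named and NB-named cells, and Ifnar2 -0.72, -0.48, -0.34 and -0.36. Irf1, a factor that both interferon types induce, was at 25.1 and 69.4 CPM in sorted (1.13) and 13.1 and 43.1 in tumor macrophages (1.39), with ratios of 1.33 and 1.19 in graft cells. A further list has 21 names of genes that take part in or regulate nucleic acid sensing or interferon induction. In it Tmem173 and Sting1 are 1 gene, as are Mb21d1 and Cgas, and 18 of the names had values. Of these, 6 of 18 measured were higher and 0 lower in sorted macrophages (median 0.08), 6 of 17 and 0 in tumor macrophages (0.25), 7 of 15 and 0 in fibroblast-named (0.42) and 4 of 15 and 2 in NB-named cells (0.14). Tmem173, which encodes STING, was at 29.4 and 76.5 CPM in sorted macrophages (1.05).

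The immunity-related and guanylate-binding GTPases, which interferon gamma induces strongly, were also higher in KO. Of 15 listed, 12 of 13 measured were higher and 0 lower in sorted macrophages (median 1.40), 8 of 8 in tumor macrophages (1.58), 12 of 12 in fibroblast-named (2.01) and 10 of 10 in NB-named cells (1.99). Iigp1 was at 1.41 and 15.8 CPM in fibroblast-named (3.18) and 0.0597 and 8.87 in NB-named cells (7.01). The difference between this list and the members was not tested. Of 17 genes of MHC class I and the immunoproteasome, 4 were higher and 2 lower in sorted macrophages (0.13), 11 and 0 in tumor macrophages (0.70), 6 and 6 in fibroblast-named (0.22) and 6 and 7 in NB-named cells (-0.26). In the graft cells B2m (0.97 and 0.75), H2-D1 (1.099 and 0.89) and Nlrc5 (3.99 and 3.03) were higher in KO, and H2-K1 (-1.67 and -1.65) and H2-Q4 (-4.19 and -4.20) lower. Reads of near-identical relatives may be split in counting, which makes Ifit1, Ifit3, Oas1a, Ifi27l2a and Trim30a uncertain, as are genes of the class I region.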

How the data were processed

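Single-cell RNA was measured in 4 libraries, 1 for each group, whose 16 labelled samples (4 per group) cannot be told apart by cell. Cell Ranger 6.0.1, Seurat 4.0.5 and build mm10 are named in the submitters' processing notes, with no role given; cell filters and counting strand are not given in the sources used here. The deposited matrix holds natural log values: each gene's UMIs, as a share of the cell's total and times 10000, had 1 added before the logarithm. The authors' deposited total count per cell and cell type names were also used. UMIs were recovered by inverting the formula: all 60957742 nonzero values were whole within 0.01, and the sums of all 20376 cells equalled the deposited totals. The design had been written for deposited counts; the recovered UMIs took their place.

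UMIs were summed per class and library with Python 3.11.15, numpy 2.4.6, scipy 1.17.1 and pandas 2.3.3. KO to WT ratios used classes of at least 50 cells in each library and genes with at least 20 UMIs, were set relative to the median gene and called at 1.5-fold, with a floor of 3 counts. Intervals (95%) cover counting error only: levels have exact Poisson bounds, shares of cells Clopper-Pearson bounds, and ratios those of a binomial conditional on the sum. Per-cell counts were made after thinning to 2000 UMIs (alternatives 1000 and 4000). No doublets were removed in the values reported. The scripts were tested on simulated data.

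The members and lists were chosen with earlier results of these data known, and the comparison with genes of like transcript length was added after seeing the data. Named with values of every library are members past 1.5-fold in 1 direction in both macrophage preparations, the 5 highest of each library, the 3 highest and 3 lowest ratios of each class, and members opposite in the 2 preparations; others are given by range and count. In graft cells and in the lists, more genes are named than this rule asks, chosen after their values were seen.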

Additional observations from a re-analysis of the deposited data

Results flagged for a closer look

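In each of the following, the KO to WT log2 ratio passed 1.5-fold in opposite directions in the sorted and the tumor preparation of the same cell class. With 1 library per group the difference between preparations was not tested. Ifi27l2a, a small interferon-induced protein, had ratios of -0.65 in sorted and 0.70 in tumor macrophages, and of -0.86 and 0.85 in cells named fibroblasts. Isg15, the ubiquitin-like modifier, had -1.49 and 0.91 in M1 macrophages. In M2 macrophages Rsad2 had -0.78 and 1.06, Oasl1 -0.78 and 2.79 and Rtp4 -0.77 and 1.64. Rtp4 had -0.77 and 1.46 in cells named NB. Rsad2 had -4.46 and 1.08 in cells named cancer stem cells, where the sorted ratio rests on 68 WT UMIs and 1 KO UMI (95% counting interval -9.79 to -1.94). In all 8 the ratio was negative in the sorted and positive in the tumor preparation.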

How the results depend on the processing

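No paired analysis was possible because the cells carry no sample name; leaving out each replicate and the replicate block were not run for the same reason. Of the main results, 153 values under alternatives stayed close to the reported ones, 25 moved and 2 changed sign; of the single genes and direction counts, 770 stayed, 197 moved and 4 changed sign. With M2 macrophages alone, the sorted macrophage median was -0.10 (0.34 reported) and Cmpk2 was at -0.12, and with M1 alone the tumor median was 0.54 (1.01 reported) and tumor Ifi27l2a -1.12. With equal weight per cell, tumor Rsad2 was at -0.30 and Usp18 at -0.17. Of members higher in both macrophage preparations (12 of 31 reported; 8.5% of all genes), equal weight gave 7 of 31 (10.0%), thinning 4 of 22 (10.1%), a 2-fold threshold 4 of 31 (2.63%), M1 alone 4 of 23 (8.88%) and M2 alone 5 of 30 (6.79%). Lower members in tumor fibroblast-named cells (1 reported) were 0 with thinning or at least 50 UMIs and 2 under a stricter cell filter. In NB-named cells thinning left 7 higher (18 reported) and 0 lower (2 reported), and at least 50 UMIs left 1 lower. Thinned sums have fewer genes that can be measured, so the thinned and the reported counts do not cover the same members. The T cell median was 0.0284 scaled by the total (-0.54 reported), a scale on which the median gene was at 0.57. The NK cell median was 1.31 with doublets removed (0.42 reported). The KO minus WT difference in the share of cells with at least 5 members, in percentage points, was 5.34 in tumor fibroblast-named cells (2.04 and 11.1 thinned to 1000 and 4000 UMIs; 10.6 and 1.85 for at least 3 and 8 members), 1.75 in NB-named cells (0.468, 4.10, 0.853 and 0.390), 13.1 in tumor macrophages (20.5 and 5.22 for at least 3 and 8) and 8.87 in sorted macrophages (3.83 thinned to 4000, -0.10 for at least 3). Except where its construction shows it, the cause was not tested. Doublet removal took between 1.51% of cells (WT tumor) and 21% (WT sorted). In graft cells Oas1a, Oas2 and Oas3 had under 30 UMIs in each library, so their ratios have wide intervals or were not measured.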
